A study of Homo sapiens with 4 samples.

Results

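FCN3 and 8 complement genes were followed in A549, an established human lung adenocarcinoma cell line, 48 h after retroviral transduction. The 9 genes were chosen by name: FCN3, the proteases MASP1, C1R and C1S, the components C3 and C5, and the membrane regulators CD46, CD55 and CD59. They are 9 of the 25192 genes in the deposited tables, and 8 of them passed the filter on low counts, all but MASP1. RNA was sequenced in 4 libraries, of which 2 came from cells given an empty control virus (EV) and 2 from cells given the FCN3 virus. Both viruses carry GFP, so that GFP expression is shared by the groups, and the FCN3 virus adds full-length FCN3 with a V5 tag at its C-terminus, in the same pLZRS-IRES-GFP vector. The RNA is bulk RNA of 1 cell line, in which a change in the number of expressing cells and a change in RNA per cell cannot be told apart.

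FCN3 (ficolin-3) is a secreted lectin that recognizes sugars on microbes and dying cells. It circulates with the MASP proteases, which then cleave C4 and C2 and so start the lectin pathway of complement. The classical pathway starts with C1q and its proteases C1r and C1s, and both routes converge on the cleavage of C3 and then C5. Host cells limit this on their own surface through CD46 and CD55, which hold back the activation of C3 and C5, and through CD59, which blocks the membrane attack complex. Liver makes most circulating complement, and lung epithelium makes some of the same proteins locally.

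The FCN3 gene occupies 27695601 to 27701315 of chromosome 1 (GRCh37, also called hg19, minus strand). Its expected count, the number of reads that RSEM assigned to the gene, was 1 in the EV library of replicate 1 and 0 in that of replicate 2. With the FCN3 virus it was 722388 in replicate 1 and 448352 in replicate 2. Endogenous FCN3 was therefore at or under the floor of 3 counts in both control libraries, and the labels and the counts of the targeted gene go together. With the FCN3 virus, FCN3 took 2.06% of the library's counts in replicate 1 and 2.23% in replicate 2. The 95% Wilson intervals, 2.06 to 2.07 and 2.22 to 2.23, cover counting error only.

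Per transcript length, FCN3 was at 41617.53 and 44729.6 TPM with the FCN3 virus, a unit in which length-corrected transcript levels sum to 1000000 in each library. It ranked 1 among all genes in both of these libraries, at 2.68 and 2.36 times the level of FTL, the ferritin light chain gene, which came next. The TPM of FCN3 uses the length of its RefSeq transcript. The virus carries the tagged coding sequence in a vector transcript of another make-up, so this TPM and its multiples of FTL are approximate. Against the single control count, the ratio of the summed and normalised counts was 1160000, with an exact 95% counting interval from 208000 to 45700000. The width of this interval comes from the single control count.

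The tables also show which FCN3 transcript was counted. RefSeq lists 2 transcripts, and RSEM gives for each library a gene length weighted by their estimated shares. This length was 1032 bases in FCN3 virus replicate 1 and 1031.99 bases in replicate 2, the length of the longer transcript. The shorter one has 999 bases, the length listed for the single count in EV replicate 1. The GENCODE forms of FCN3 differ in the same way, by a coding exon of 33 bases, which is exon 4 of the 8 coding exons of the longer form and lies on chromosome 1 of GRCh37 from 27699979 to 27700011. The exon is shown because it separates the transcript found in these cells from the other. In the line that follows, the capitals mark it and the lower case letters are the 45 bases of the transcript on each side.
FCN3, exon 4: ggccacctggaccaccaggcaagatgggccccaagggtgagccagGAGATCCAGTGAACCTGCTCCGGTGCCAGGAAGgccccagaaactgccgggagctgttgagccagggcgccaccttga
Almost all FCN3 reads were assigned to the form that holds these 33 bases. The tables have 1 row for FCN3, so its counts are not divided into viral and endogenous transcripts.

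Before the complement genes, the libraries and the cell type were checked. The libraries held 35733735 and 16353554 expected counts (EV replicates 1 and 2) and 35031565 and 20136068 (FCN3 replicates 1 and 2), so that 3 counts correspond to between 0.0823 and 0.179 CPM, normalised counts per 1000000. The epithelial markers EPCAM, KRT8, KRT18 and KRT19 summed to between 3630 and 5250 TPM in the 4 libraries. All 4 alveolar type II markers (SFTPA1, SFTPB, SFTPC and NKX2-1) were at or under 3 counts in every library, as were all 3 hepatocyte markers (ALB, APOA2 and TTR). The leukocyte markers summed to 35.9 and 36.8 TPM in EV cells and to between 50.2 and 62.8 TPM with the FCN3 virus, almost all of it CD68, while PTPRC and LYZ did not exceed 1 count in any library. Fibroblast markers summed to between 2.86 and 8.61 TPM and endothelial markers to no more than 0.08 TPM.

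In EV cells the 9 genes fell into clearly different ranges of TPM. CD59 and CD46 were highest, at 98.3 and 91.78 TPM and at 92.22 and 93 TPM in the replicates, and these ranges overlapped. C1S (37.1 and 49.34 TPM) and C1R (35.29 and 44.85 TPM) came next and also overlapped. C3 (27.31 and 28.83 TPM), CD55 (23.88 and 23.72 TPM) and C5 (14.22 and 21.04 TPM) followed without overlap, and FCN3 and MASP1 were at or close to 0. With the FCN3 virus, FCN3 stood first, followed by CD46 and CD59, then by CD55 (32.43 and 32.16 TPM), which had passed C1S (19.87 and 28.52 TPM) and C1R (14.74 and 19.28 TPM). C1R and C5 (11.77 and 17.4 TPM) overlapped there, and C3 had moved to the lowest place among the genes above the floor, at 4.48 and 2.22 TPM. The TPM of C1R is uncertain against the other genes, since the tables list its RefSeq transcript in a pair of entries with a weighted length near 1130 bases, and what these entries cover is not given in the sources used here.

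**Figure D1:**
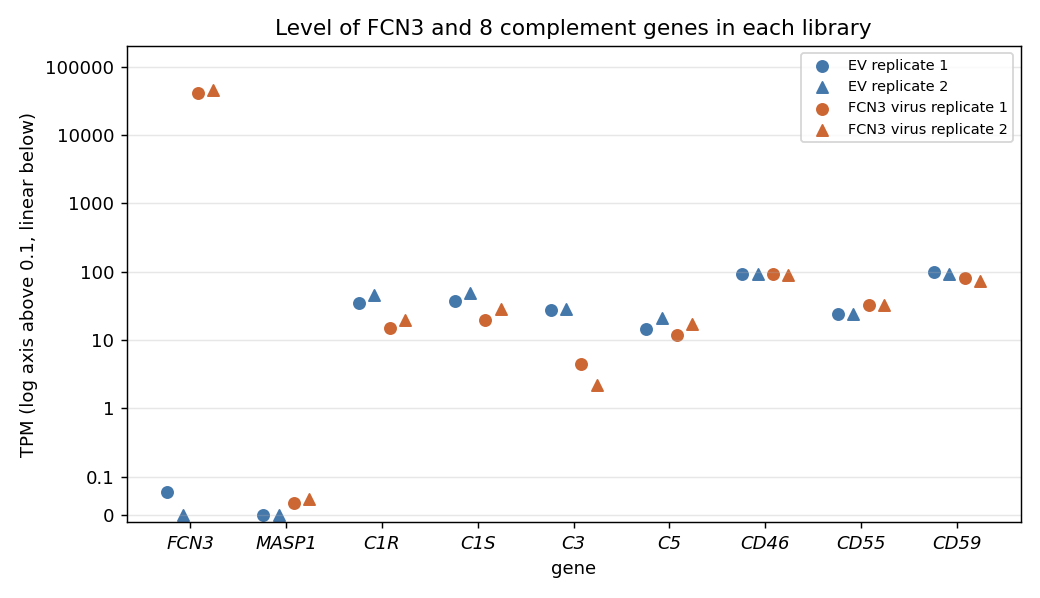
TPM of the 9 genes in each of the 4 libraries, on an axis that is logarithmic above 0.1 and linear below, with circles for replicate 1 and triangles for replicate 2. FCN3 moves from at most 0.06 TPM to at least 41617.53 TPM, C3 is the gene with the largest drop, and CD46 stays between 89.66 and 93 TPM.

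The groups were tested on expected counts over 14099 genes (edgeR, quasi-likelihood), with an adjusted p of 0.01 as the threshold. The comparison was run without the replicate number and, since libraries were to be compared within replicate numbers, with that number as a block. Without the block the test called 0.965% of all tested genes (0.738% as higher). FCN3 passed the filter and was called through the virus that carries it, so its call was fixed by the design and is no result. For the other 7 tested members the test called 0, although 4 had an unadjusted p under 0.05, as did 25.1% of all tested genes. DESeq2 called 4 of these 7 (C3, C1R, C1S and CD55), and 7.91% of the genes it tested. With the block, edgeR called 36.2% of all tested genes (19.1% higher and 17.1% lower with the FCN3 virus). Of the same 7 members it called CD55 as higher and C3, C1R, C1S and CD59 as lower. So large a background means that a call under the block does not set a member apart from other genes. For any 1 gene by itself, exact permutation of 2 against 2 libraries reaches a two-sided p of 0.33 at best.

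C3, the component on which all complement pathways converge, changed most after FCN3 itself. Its normalised level was 73.46 and 78.28 CPM in EV replicates 1 and 2, and 13.11 and 6.382 CPM with the FCN3 virus. Both FCN3 virus libraries lay far below both EV libraries. The EV libraries were alike, while the FCN3 virus libraries differed from each other by 1.04 on the log2 scale. The fitted change was -2.91 on the log2 scale (standard error 0.30). Its adjusted p in edgeR was 0.011 without the block, just outside the threshold, and 1.2e-28 with the block. In DESeq2 without the block the adjusted p was 2.6e-23.

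Within replicate numbers, C3 was lower by a factor of 5.6 in replicate 1 (exact 95% counting interval 5.06 to 6.21) and of 12.3 in replicate 2 (10.2 to 14.8). These intervals do not overlap, so that the pairs differ by more than counting error. The log2 ratios of the pairs differed by 1.13, and both lay outside the 95% interval of the blocked fit (-3.16 to -2.72), whose standard error of 0.11 rests on a spread estimated largely from other genes. The fall of C3 is thus large in each pair, and its size is less certain than the blocked fit states. Among the 14099 tested genes, C3 had the fold change ranked 14 from the lowest, with 0.0922% of genes below it. The C3 gene (GRCh37 chromosome 19, 6677715 to 6730573, minus strand) overlaps GPR108 on the same strand in GENCODE.

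C1R and C1S, the proteases of the classical pathway, were lower together. C1R was at 18.54 and 23.71 CPM in the EV libraries and at 8.399 and 10.8 CPM with the FCN3 virus, and the groups did not overlap. The fit without the block put it at -1.14 on the log2 scale with a standard error of 0.20 and an adjusted p of 0.035 (edgeR). The blocked fit gave the same value with a standard error of 0.10 and an adjusted p of 7.2e-14. The ratio was almost the same in the replicate pairs, a factor of 2.21 in replicate 1 and 2.19 in replicate 2.

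C1S was at 52.83 and 71.12 CPM in EV cells and at 30.77 and 43.37 CPM with the FCN3 virus, again without overlap. On the log2 scale this was -0.74 without the block, with a standard error of 0.22 and an adjusted p of 0.11 in edgeR. With the block it was -0.75, with a standard error of 0.07 and an adjusted p of 7.1e-14. C1S was lower by a factor of 1.72 in replicate 1 and 1.64 in replicate 2. In both proteases replicate 2 was higher than replicate 1 in each group, which widens the spread of the unblocked fit. The genes are neighbours on chromosome 12 of GRCh37, C1S on the plus strand from 7096351 to 7178336 and C1R on the minus strand from 7187513 to 7245203. GENCODE has LPCAT3 overlapping C1S on the opposite strand and C1RL overlapping C1R on the same strand. Expected counts of C1R were 676 and 397 in EV cells and 285 and 215 with the FCN3 virus. Those of C1S were 1926 and 1191 in EV cells and 1044 and 863 with the FCN3 virus. All are whole numbers, so no reads divided in fractions with another gene show in them. To which gene reads in the shared parts were assigned was not tested.

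MASP1, the gene of a protease that travels with ficolins, had expected counts of 0 and 0 in EV cells and of 2 and 1 with the FCN3 virus. All 4 values are at or under the floor, so no fold change is given, and MASP1 mRNA was not detectable at this depth.

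C5, the component cleaved after C3, was at 41.06 and 61.33 CPM in EV cells and at 36.99 and 53.77 CPM with the FCN3 virus. These ranges overlapped, and the distance between replicates was larger than that between groups. Within replicate numbers C5 was lower by 0.15 and 0.19 on the log2 scale. The fitted log2 fold change was -0.17 in both fits, with an adjusted p of 0.73 without and 0.031 with the block in edgeR, neither of which passed 0.01. The 95% interval of the blocked fit ran from -0.30 to -0.04 and that of the unblocked fit from -0.81 to 0.47. The unblocked interval leaves room for a decrease of the size seen in C1S (-0.74) and also for an increase. Neither interval reaches a decrease of the size seen in C3 (-2.91).

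Of the 3 membrane regulators, CD55 (decay-accelerating factor) was higher with the FCN3 virus. Its level was 34.26 and 34.33 CPM in EV cells against 50.57 and 49.35 CPM, with little distance between replicates of either group. The log2 fold change was 0.54 in both fits, with a standard error of 0.09 and an adjusted p of 0.032 in edgeR without the block, and 0.07 and 3.5e-09 with it. The factor was 1.48 in replicate 1 (exact 95% counting interval 1.37 to 1.59) and 1.44 in replicate 2 (1.3 to 1.6).

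CD59 (protectin) went the other way by a smaller amount. It was at 400.3 and 377.2 CPM in EV cells and at 353 and 317.6 CPM with the FCN3 virus, and the groups did not overlap. Both fits gave -0.21 on the log2 scale, with a standard error of 0.09 and an adjusted p of 0.23 without the block, and of 0.05 and 0.00029 with it (edgeR). CD46 (membrane cofactor protein) was at 157.6 and 160.4 CPM in EV cells and at 170.1 and 164.4 CPM with the FCN3 virus. Its log2 fold change of 0.07 did not pass the test in either fit (adjusted p = 0.61 and 0.26 in edgeR), and the 95% interval of the blocked fit was -0.03 to 0.18. In TPM the sign of the CD46 difference was negative, at -0.01 and -0.05 on the log2 scale in the replicate pairs.

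**Figure D2:**
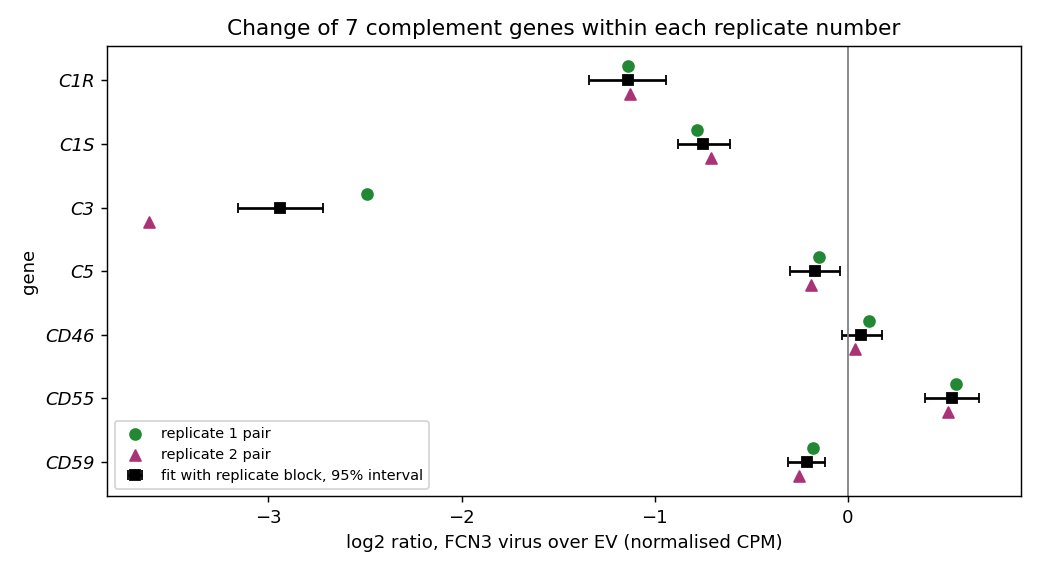
Log2 ratio of normalised CPM, FCN3 virus over EV, for 7 genes within replicate 1 (circles) and replicate 2 (triangles), with the estimate and 95% interval of the edgeR fit with the replicate block (squares and bars). The pairs lie within 0.07 of each other in 6 genes, and for C3 they differ by 1.13 and fall on either side of the interval.

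The weighted gene length of C1S, CD46, CD55 and CD59, each with several RefSeq transcripts, varied by at most 0.489% over the 4 libraries. An exchange between transcripts of like length would not show in it.

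Set against all tested genes, the members other than FCN3 had a median log2 fold change of -0.21, beside 0.02 over the 14099 genes. The groups did not overlap in CPM for 6 of the 7, beside 54.5% of all tested genes. Of the 6, CD55 and CD46 were higher and C3, C1R, C1S and CD59 lower, beside 28% and 26.5% of all tested genes. C1R had 1.48% of genes with a lower fold change, C1S 3.99%, and CD55 lay higher than 89% of genes. CD59, C5 and CD46 lay in the middle, above 23.4%, 27.4% and 57.2% of genes.

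**Figure D3:**
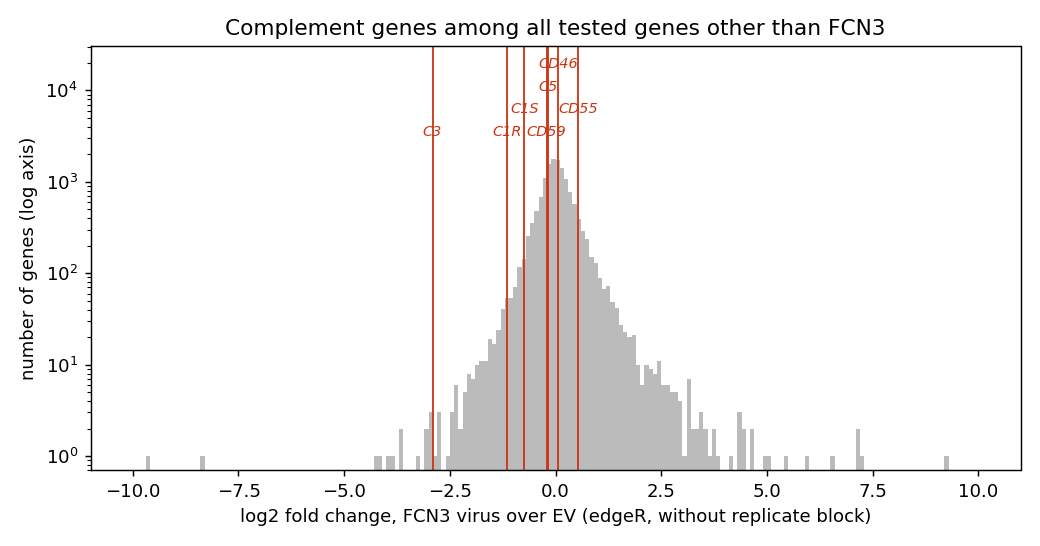
Number of genes (log axis) by log2 fold change, FCN3 virus over EV, in edgeR without the replicate block, for all tested genes other than FCN3. Red lines mark 7 complement genes, with C3 at -2.91 in the far lower tail and CD46 at 0.07 in the centre.

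The members with calls were set beside the genes most like them over the 4 libraries, by the Euclidean distance of log2 CPM after each gene's mean was subtracted. Nearest to C3 were CLDN2 (distance 0.476) and C11orf86 (0.494), with log2 fold changes of -2.71 and -2.91. For the other called members the nearest genes were much closer, MXD3 for C1R (0.0584), ARSI for C1S (0.0421), CAV1 for CD55 (0.0143) and GFPT2 for CD59 (0.00888). For FCN3, 148 genes shared its pattern of at most 3 counts in both EV libraries and more in both FCN3 virus libraries, against 70 genes with the opposite pattern. Ranked by the lower of their FCN3 virus libraries, BHLHA15 came first at 0.973 CPM, with counts of 1 and 1 against 33 and 24, followed by TXNIP (2 and 1 against 57 and 18) and DSG3 (2 and 0 against 34 and 15). The totals of 148 and 70 genes are not corrected for depth. In replicate 2 the cutoff of 3 counts stood at 0.179 CPM in EV and 0.151 CPM with the FCN3 virus. In replicate 1 it stood at 0.0823 and 0.0884 CPM.

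The remaining complement system was described by a list of 47 genes, all found in the tables. Of these, 19 had 0 counts in all 4 libraries, 22 were at or under 3 counts in every library, and 15 passed the filter. The lectin pathway genes FCN1, FCN2, MBL2 and COLEC10 had 0 counts in every library, as did the C1q genes C1QA, C1QB and C1QC, and 5 of 6 terminal pathway genes (all but C8G). Within this list, which leaves out FCN3, the initiators and the pore-forming components were thus largely undetected in these cells, with or without the FCN3 virus. COLEC11 (5 to 19 counts) and MASP2 (4 to 6 counts) were above the floor in every library but did not pass the filter. C4A and C4B are near-identical copies between which RSEM divides reads, so their single values are uncertain.

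Of the 15 tested genes of the list, edgeR called 0 without the block, with 1 at an unadjusted p under 0.05 (25.1% over all tested genes), and DESeq2 also called 0. With the block edgeR called 3, all lower (17.1% of all tested genes were called lower), and 12 did not pass. The median log2 fold change of the 15 was -0.23 in both fits, beside 0.02 and 0.01 over all tested genes. CLU (clusterin), an inhibitor of the membrane attack complex, was at 351.4 and 503.8 CPM in EV cells and at 306.5 and 377 CPM with the FCN3 virus, and the blocked fit in edgeR put the change at -0.31 on the log2 scale, with a standard error of 0.05 and an adjusted p of 1.8e-06. Without the block the adjusted p of CLU was 0.38, and the unblocked value of -0.32 went to -0.05 without EV replicate 2, -0.55 without EV replicate 1, -0.18 without FCN3 replicate 1 and -0.48 without FCN3 replicate 2. VTN (vitronectin), which also inhibits that complex, was at 2.359 and 9.614 CPM against 1.827 and 3.769 CPM, so that EV replicate 2 stood far above the other libraries. Its log2 fold change was -0.94 with the block (adjusted p = 6.4e-05 in edgeR) and -1.01 without (adjusted p = 0.47), and the unblocked value was 0.14 without EV replicate 2, -1.87 without EV replicate 1, -0.55 without FCN3 replicate 1 and -1.59 without FCN3 replicate 2. C1QBP, a mostly mitochondrial protein that binds C1q, was at 492.1 and 387 CPM against 421.4 and 328.5 CPM (log2 fold change -0.23, adjusted p = 9.8e-05 in edgeR with the block). Without the block its adjusted p was 0.46, and its value was -0.04 without EV replicate 1, -0.40 without EV replicate 2, -0.42 without FCN3 replicate 1 and -0.06 without FCN3 replicate 2. In CLU, VTN and C1QBP the groups overlapped, while the FCN3 virus library was the lower in each replicate number. CFD (factor D), the alternative pathway protease, was at 5.87 and 7.345 CPM against 5.157 and 5.026 CPM and did not pass in either fit (adjusted p = 0.35 and 0.06 in edgeR).

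**Figure D4:**
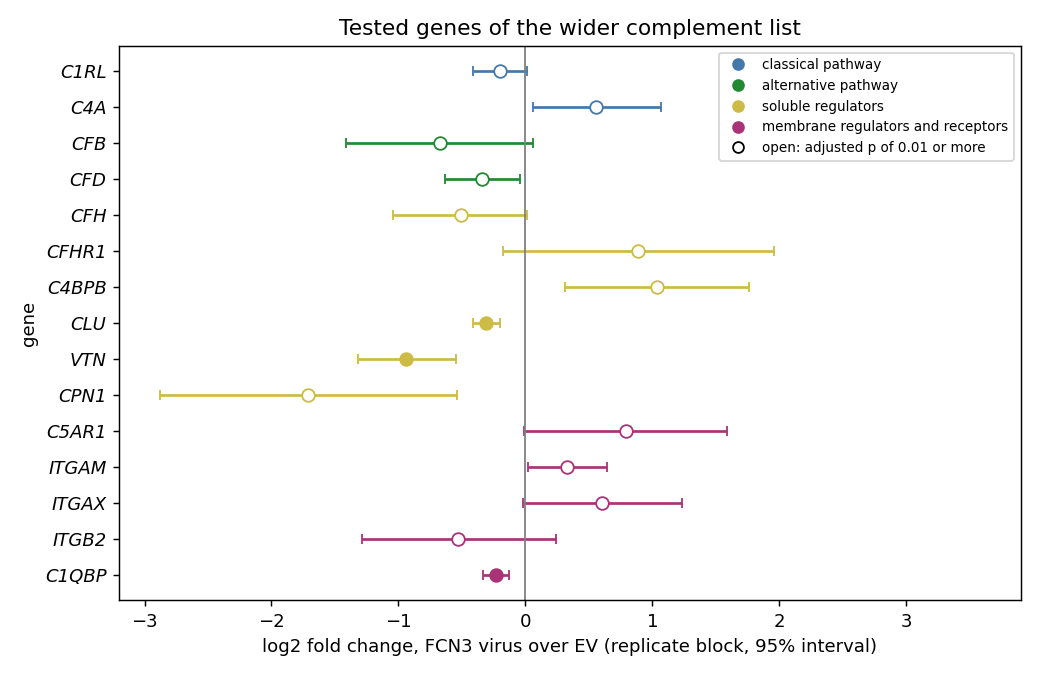
Log2 fold change, FCN3 virus over EV, with 95% intervals from the edgeR fit with the replicate block, for the 15 tested genes of the wider complement list, coloured by class. Filled points mark the 3 genes that were called, CLU, VTN and C1QBP, all of them lower.

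Promoter sequences were set beside the members that moved in opposite directions. RefSeq promoter windows of 300 bases (GRCh38.p14, from 250 before to 50 after a transcript start) were matched by symbol for 6 of the 9 genes, with 12 windows in all. FCN3, C1S and C3 were not analysed here. CD55, which was higher, and C1R, which was lower, are shown, with capitals for the letters TGACG or CCAAT on either strand. In edgeR both were called with the block and neither without it.
CD55, chr1:207321428-207321727, plus strand: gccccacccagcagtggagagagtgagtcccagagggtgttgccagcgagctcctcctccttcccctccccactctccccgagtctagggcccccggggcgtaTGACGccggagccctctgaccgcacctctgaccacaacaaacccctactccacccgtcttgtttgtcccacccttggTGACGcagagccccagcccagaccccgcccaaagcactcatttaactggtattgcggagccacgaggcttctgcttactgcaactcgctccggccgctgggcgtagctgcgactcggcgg
C1R, chr12:7092396-7092695, minus strand: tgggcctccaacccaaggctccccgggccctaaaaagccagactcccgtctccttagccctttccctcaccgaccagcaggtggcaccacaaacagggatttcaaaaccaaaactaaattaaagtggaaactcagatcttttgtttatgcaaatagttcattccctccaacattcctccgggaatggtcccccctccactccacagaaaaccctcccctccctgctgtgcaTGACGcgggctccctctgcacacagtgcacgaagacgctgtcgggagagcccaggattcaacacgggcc
TGACG, the core of the cAMP response element, occurred in the CD55 window at positions 104 and 181 counted from its 5′ end, and in the printed C1R window at position 232. The other C1R window (chr12:7091844-7092143) does not hold it. TGACG was in 5 of the 12 windows, from 4 of the 6 genes, and in 24.6% of all 35116 windows. The CCAAT box was in 7 of the 12, from 4 of the 6 genes (CD46, MASP1, C5 and CD59), and in 34.6% of all windows, and it was in no window of CD55 or C1R. Windows of the same gene can overlap, so a match in CD46 or CD59 may be counted more than once. The ER stress response element (CCAAT, 9 bases of any kind, then CCACG) was in 0 of the 12 windows and in 0.0769% of all windows. TGACGTCA, which contains TGACG, was also in 0 of the 12, against 1.85% of all windows, as was TATAAA, against 11.5%. TTCNNNGAA and TTNNGCAA were each in 3 of the 12 windows, from CD59 and C1R alone, against 7.66% and 10.5% of all windows. The TTCNNNGAA matches of CD59 are a single site in overlapping windows. Both strands were searched in every case. These matches describe the letters in the windows only.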

How the data were processed

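RNA-seq of A549 cells was taken from 4 libraries, 2 EV and 2 FCN3 virus, grouped and numbered by the sample labels. Nothing states that the replicates were separate experiments, so p-values rest at most on the spread between these libraries, which may be technical. In edgeR the spread of each gene is drawn toward that of other genes, and with the block it is estimated largely from them. For C3 the degrees of freedom were 5.43 without and 49.4 with the block, from the same 4 libraries. A small p with the block therefore does not measure the spread of that gene alone. Stranded mRNA libraries were sequenced by the authors, who removed adapters and poor reads, used STAR for alignment to hg19 (2.6.1d in the submitters' processing notes) and quantified genes by RSEM. Per gene, the authors deposited expected counts, which are estimated and not normalized, and TPM. The deposited FPKM were not analysed. The length and effective length columns are in bases. The strand setting of the counting is not given in the sources used here.

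Expected counts were rounded and tested with edgeR 4.0.16 in R 4.3.3 (TMM, filterByExpr, glmQLFit and glmQLFTest, Benjamini-Hochberg over 14099 genes, threshold 0.01). Standard errors were derived from the F statistic of each gene. Alternatives used DESeq2 1.42.0, limma 3.58.1 on log2(TPM + 1) and log2(TPM + 0.1), other size factors, filters, effective length offsets, and each library left out. Code was tested on simulated data. Wilson intervals, exact counting intervals and floors cover counting error only. Intervals of the edgeR fits were taken from the standard error and degrees of freedom of each gene. They therefore include the spread between libraries as edgeR estimated it. Members and gene lists were chosen with earlier results of these data known. Named from the wider list were genes called in either edgeR fit or with a mean of at least 10 TPM. Similar genes were named by the stated distance or count pattern, and markers by class. Loci are from GENCODE on GRCh37. Promoter motifs were chosen after the expression values were seen.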

Additional observations from a re-analysis of the deposited data

How the results depend on the processing

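Same-numbered libraries tended to deviate together over the 8310 genes whose mean log2 CPM exceeded 4. The difference between EV replicates correlated with that between FCN3 virus replicates (Pearson's r = 0.806, across genes, which are not independent replicates). Of the 7 tested members other than FCN3, 4 had replicate differences of the same sign in both groups. In C3 the log2 difference of replicate 1 from replicate 2 was -0.09 in EV and 1.04 with the FCN3 virus. Replicate number also goes with depth, as both replicate 1 libraries held more counts than both replicate 2 libraries. With only 2 pairs the labels give a shared number and no shared day or batch, so the pairing by replicate block rests on that number. The count of all called genes went from 136 without to 5099 with the replicate block, and was 1046 in DESeq2, 2209 in DESeq2 with the block, 4581 in limma on log2(TPM + 1) with the block and 1014 at a threshold of 0.05. Leaving out a library gave 92 to 267. Higher calls were 76.5% of the total without the block, 52.7% with it, 56.2% in DESeq2, 50.1% in DESeq2 with the block and 31.4% in limma with the block, where the median of all genes was -0.07.

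Wherever FCN3 was tested, the number of called members includes it, and its call was fixed by the virus given. Members called, 1 in the unblocked edgeR test, became 6 with the replicate block, 5 in DESeq2, 6 in DESeq2 with the block, 6 in limma with the block, 4 at a threshold of 0.05 and 2 without a filter on low counts. With FCN3 left out before normalization it was 0, since FCN3 itself is not tested there. Each library left out in turn gave 2 called members, lowest and highest alike, as C3 passed in each case (adjusted p from 0.00036 to 0.0033), although a group is then 1 library that is assumed to vary like the rest. For C3 the log2 fold change stayed between -3.57 and -2.53, and the adjusted p between 1.2e-28 and 0.014 over its 15 alternatives. C1R ranged from -1.32 to -0.96, C1S from -1.01 to -0.51, CD55 from 0.42 to 0.56 and CD59 from -0.32 to -0.14, none changing sign. The wider list, with 15 genes tested in edgeR, had 0 calls, against 3 with the replicate block in edgeR, 2 in DESeq2 with the block and 5 in limma with the block. For members and list alike, the calls over all tested genes are the background. With the block they were 5099 of 14099 in edgeR, 2209 of 13939 in DESeq2 and 4581 of 14099 in limma. Without it edgeR called 136 of 14099, or 1014 at a threshold of 0.05. DESeq2 called 1046 of 13216, and edgeR without a filter on low counts 159 of 18636.

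Signs reversed for C5 without EV replicate 2 (0.13) and without FCN3 replicate 1 (0.08), in a leave-one-out range of -0.46 to 0.13, for VTN without EV replicate 2, in a range of -1.87 to 0.14, and for CD46 in limma on log2(TPM + 1) without and with the block and on log2(TPM + 0.1) (-0.03 in each). In the deposited TPM, log2 ratios within replicates 1 and 2 were -1.26 and -1.22 for C1R, -0.90 and -0.79 for C1S, -0.27 and -0.27 for C5, 0.44 and 0.44 for CD55, -0.30 and -0.33 for CD59, and reversed to -0.01 and -0.05 for CD46. The cause was not tested. MASP1 and 22 of the 47 genes of the wider list were at or under 3 counts in every library, too few for any comparison.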

Other observations

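Several markers used to check the cell type also differed between the groups in the fit with the replicate block, not all in the same direction. That fit called 36.2% of all tested genes, so these calls do not set the markers apart. The fibroblast markers COL1A1 and COL3A1 were tested and did not pass (adjusted p = 0.54 and 0.31 in edgeR with the block). KRT19, a keratin of simple epithelia, was at 23.12 and 37.5 CPM in EV cells against 67.31 and 74.38 CPM, a difference of 1.24 on the log2 scale (adjusted p = 0.04 without and 9.7e-20 with the replicate block in edgeR). KRT8 and KRT18, the main keratin pair of these cells, differed by 0.26 (adjusted p = 0.41 without and 1.6e-05 with the block in edgeR) and 0.31 (0.32 and 3.6e-07) on the log2 scale. EPCAM, an epithelial adhesion molecule, was at 2.249 and 3.105 CPM against 1.002 and 1.457 CPM (-1.12, adjusted p = 0.12 without and 0.00017 with the block in edgeR). CD68, a lysosomal glycoprotein used as a macrophage marker, was at 31 and 33.02 CPM against 61.65 and 48.8 CPM (0.79, adjusted p = 0.036 without and 6.9e-13 with the block in edgeR). CD14, the other leukocyte marker above the floor, went the other way, at 1.591 and 0.836 CPM against 0.7073 and 0.2513 CPM (-1.31, adjusted p = 0.22 without and 0.0023 with the block in edgeR). Their part in the results for complement genes was not tested.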
